A study of Homo sapiens with 4 samples.

Results

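The genes described here carry, store and release iron in liver cells or set the level of hepcidin, the liver hormone that controls body iron. They were measured in Huh7, an established human cell line from a hepatocellular carcinoma, transfected with pcFLAG-hSTYK1, a plasmid carrying the human receptor-like kinase STYK1, or with pcFLAG, the control plasmid. RNA was read on biotin-labelled whole-transcript arrays, 2 per group, and the deposited table holds log2 signals of 53617 probe sets for all 4 arrays. Of the 10 genes chosen by name (TF, TFRC, TFR2, HAMP, FTL, FTH1, SLC40A1, HFE, HJV and SLC11A2), 9 had a probe set under their symbol, out of 22395 genes with a symbol of their own. Each of the 9 had 1 probe set. FTH1, the heavy chain of ferritin, was matched by none, so it has no value here.

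Iron travels in blood bound to transferrin (TF) and enters cells with the transferrin receptor (TFRC). In the cell it crosses the endosome membrane through SLC11A2, is stored in ferritin (FTL and FTH1) and leaves through ferroportin, SLC40A1. Hepcidin, the product of HAMP, is made by hepatocytes and binds ferroportin, which is then degraded. HFE, TFR2 and hemojuvelin (HJV) act upstream of it at the hepatocyte surface, where they bring transferrin-bound iron and BMP ligands to bear on SMAD proteins. Interleukin 6 raises HAMP by way of its receptor and STAT3.

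The sequence upstream of HAMP is shown because HAMP had the largest difference between the groups among the 9 genes, and because both of these routes meet on its promoter. It covers the 250 bases before the RefSeq start of the gene on the plus strand, at chr19:35282278-35282527 of GRCh38.p14, and the arrays did not read it. Capitals mark GGCGCC, a letter pattern bound by SMAD complexes, and TTCTTGGAA, a match to TTCNNNGAA, the pattern of STAT proteins.

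HAMP upstream: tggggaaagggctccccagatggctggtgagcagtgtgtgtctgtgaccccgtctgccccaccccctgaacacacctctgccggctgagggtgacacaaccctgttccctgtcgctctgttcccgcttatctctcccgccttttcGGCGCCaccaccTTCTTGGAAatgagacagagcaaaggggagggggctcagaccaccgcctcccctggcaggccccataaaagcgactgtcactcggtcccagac

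GGCGCC lies 105 to 100 bases before the start and TTCTTGGAA 93 to 85 bases before it. Both patterns read the same on either strand, so one search covers both strands. Of 35116 windows of 250 bases before RefSeq starts, 16.4% held GGCGCC, 6.57% held TTCNNNGAA and 0.538% held both. Promoter entries were found for 8 of the 10 genes, with 2 starts for TF and 4 for SLC11A2; TFR2 and FTH1 were not matched. GGCGCC was also found before both TF starts and before TFRC, and TTCNNNGAA before HJV. These matches describe letters and do not show that a factor binds there.

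Ferritin messenger RNAs carry an iron-responsive element, a hairpin near the start whose loop has the letters CAGTGN. Iron regulatory proteins bind it when iron is scarce and hold back translation, whereas elements near the far end of TFRC messenger RNA protect it from decay. The stretch of FTL that holds these letters, at chr19:48965334-48965358 of GRCh38.p14 on the plus strand, is shown with CAGTGN in capitals, 39 to 44 bases into the transcript, since this step acts on translation and is not read by an array.

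FTL loop: tctcttgcttcaaCAGTGTttggac

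On the transcript strand, 6.36% of all windows of 50 bases from a RefSeq start hold CAGTGN, among them those of HAMP and HJV, so the letters alone do not mark such an element.

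The transfected gene separated the groups as labelled. STYK1 read 0.26 and 0.61 in the controls against 7.40 and 7.86 in the STYK1 arrays, and it was the 1 probe set of 53617 (0.00187%) to pass at an adjusted p under 0.05 (limma, adjusted p = 0.0373). The call was lost with a replicate block (adjusted p = 0.0637) and without any 1 array (adjusted p = 0.347 to 0.724), at differences of 6.96 to 7.42. Both controls lay under the floor, so the excess is a bound, at least 118-fold between the means, which leaves out the spread between arrays. The floor is the 95th percentile over 432 probe sets of olfactory receptors, which liver cells should lack, and lay between 0.73 and 0.78 on the 4 arrays. All 7 measured hepatocyte markers had mean signals above it, albumin (ALB) at 10.42 to 10.60 among them. Mean signals lay above it for 3 of 8 macrophage markers (CSF1R, CD14 and CD68), 1 of 5 erythroid (HBG1), 0 of 4 endothelial and 1 of 4 stellate cell markers (COL1A1). The defining macrophage marker CD163 and the erythroid markers HBB and ALAS2 were under the floor on all 4 arrays. The 4 stellate cell markers were all lower in the STYK1 arrays without passing, where 48.1% of all probe sets were lower. Their log2 signals summed to 2.72 and 3.26 in the controls against 2.24 and 2.59 in the STYK1 arrays. Apart from COL1A1 these markers had means not above the floor, and their part in the results was not tested.

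None of the 9 iron genes passed the test, and hepcidin was the only one whose interval reached a 2-fold change. At an adjusted p under 0.05 limma called 0 of 9, and at an unadjusted p under 0.05 also 0 of 9, where 4.64% of all probe sets were called. Their adjusted p-values lay between 0.979 and 0.996. With 2 arrays per group and 53617 probe sets, even STYK1, at a log2 difference of 7.19, reached only 0.0373 in limma. Not passing, here and for the lists below, therefore does not show that a gene was unchanged. Of the 9, 5 were higher and 4 lower in the STYK1 arrays, with a median difference of 0.04 on the log2 scale against 0.006 over all probe sets. In such bulk samples, fewer cells that express a gene and less RNA per cell cannot be told apart. The median absolute difference of the 9 genes was 0.10. It was 0.09 over all probe sets and 0.12 over the 19673 with a mean above the floor, which TFR2 and HJV did not have. No exact permutation test is given per gene, because with 2 arrays in each group its smallest possible p is 0.333.

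**Figure D1:**
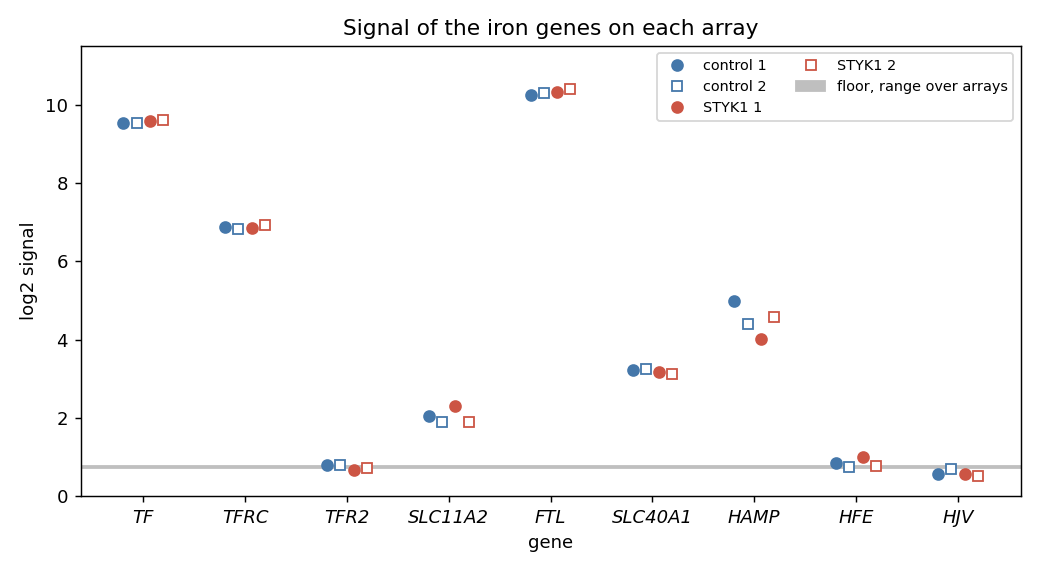
Log2 signal (vertical axis) of 9 iron genes on each of the 4 arrays; blue points are controls, red points STYK1 arrays, circles replicate 1 and squares replicate 2, and the grey band is the floor over the arrays. The 4 points of TF, TFRC and FTL nearly coincide, those of HAMP spread from 4.01 to 4.98, and those of TFR2, HFE and HJV lie at or near the floor.

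Among the iron supply genes, TF and TFRC were read with little spread and SLC11A2 with more. Transferrin, the plasma carrier that hepatocytes secrete, read 9.54 and 9.53 in the controls against 9.58 and 9.60 in the STYK1 arrays. Both STYK1 arrays thus lay above both controls, by 0.06 on average (standard error 0.08, 95% interval −0.16 to 0.27), and by 0.02 after quantile normalization. Its replicate SD, taken within the groups, was 0.01, smaller than that of nearly all probe sets with a mean above the floor, of which 0.559% had a smaller one.

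TFRC, which takes up transferrin-bound iron and is the classic readout of the iron regulatory proteins, read 6.86 and 6.83 in the controls against 6.84 and 6.93 in the STYK1 arrays. The groups overlapped, since STYK1 replicate 1 lay between the controls. The difference was 0.04 with an interval of −0.19 to 0.27, −0.004 without STYK1 replicate 2 and 0.008 after quantile normalization. At these bounds TFRC messenger RNA in the STYK1 arrays would be 0.875 to 1.21 times that of the controls.

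TFR2, the second transferrin receptor and a sensor of iron-loaded transferrin in hepatocytes, was at the floor. It read 0.80 in both controls, just above the floor, against 0.66 and 0.72 in the STYK1 arrays, under it. The groups did not overlap, but the STYK1 signals give only a bound. With the floor in place of those signals, the control mean of TFR2 was 1.02-fold higher, which leaves out the spread between arrays. The limma difference of −0.11 had an interval of −0.33 to 0.12, which spans 0. SLC11A2, the transporter DMT1 that moves iron out of endosomes, read 2.05 and 1.89 in the controls against 2.30 and 1.90 in the STYK1 arrays. STYK1 replicate 1 stood highest and the groups overlapped. Its difference of 0.13, with an interval of −0.30 to 0.55, was −0.07 without that array.

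Storage and export gave small differences in opposite directions. The ferritin light chain FTL read 10.24 and 10.30 in the controls against 10.32 and 10.41 in the STYK1 arrays, which differ by 0.09 (standard error 0.09, interval −0.14 to 0.33). The STYK1 arrays were both higher, but the gap between STYK1 replicate 1 and control replicate 2 was smaller than the gap within either group. The highest signal on any array lay between 11.32 and 11.35, so FTL was read near the top of the scale. Whether its signal still followed the amount of RNA there was not tested.

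Ferroportin, SLC40A1, the only known iron exporter of the cell and the target of hepcidin, read 3.24 and 3.25 in the controls against 3.16 and 3.12 in the STYK1 arrays. Both STYK1 arrays were lower than both controls, with a mean difference of −0.10, a standard error of 0.08 and an interval of −0.32 to 0.12. The gaps within the groups were 0.02 and 0.04, smaller than the difference, yet it did not pass (limma, adjusted p = 0.981).

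Across the 9 genes the groups did not overlap for 4: TF and FTL, higher in the STYK1 arrays, and TFR2 and SLC40A1, lower. Over all probe sets 32.8% did not overlap, 17.4% higher and 15.4% lower, and among those with a mean above the floor 33.3%. The 4 of 9 are therefore not read as a result about iron genes.

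**Figure D2:**
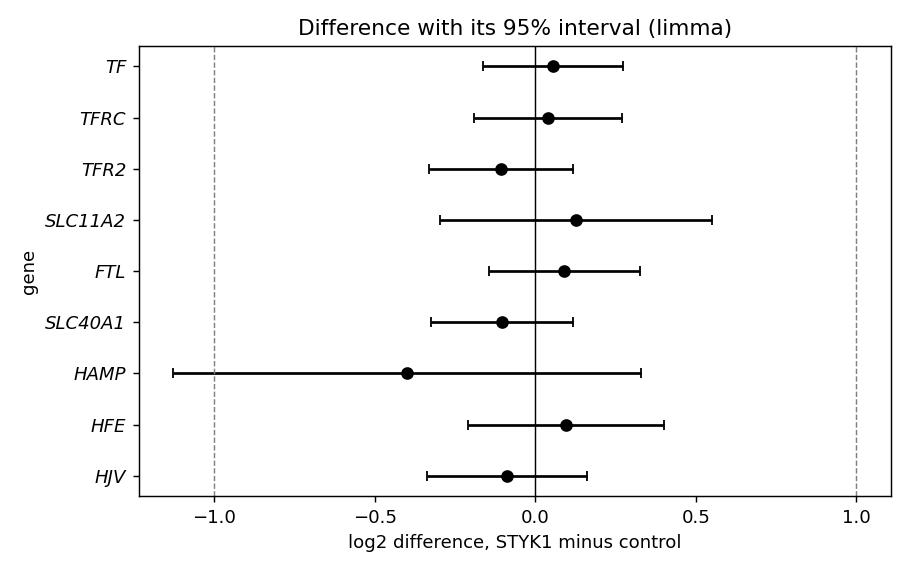
Difference in log2 signal between STYK1 and control arrays (horizontal axis) for 9 iron genes, with 95% intervals from limma as bars and dashed lines at a 2-fold change on either side. Every interval spans 0, and only that of HAMP, from −1.13 to 0.33, reaches a dashed line.

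Hepcidin itself varied more between replicates than between groups. HAMP read 4.98 and 4.39 in the controls against 4.01 and 4.57 in the STYK1 arrays. The highest value was a control and the lowest a STYK1 array, and the other two lay between them in the opposite order. The mean was 4.69 ± 0.42 (SD, n = 2) in the controls and 4.29 ± 0.40 (SD, n = 2) in the STYK1 arrays. The difference of −0.40 had a standard error of 0.28 and did not pass (limma, adjusted p = 0.979), and among probe sets with a mean above the floor 9.42% had a larger absolute difference.

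Leaving out 1 array moved the HAMP difference between −0.69 and −0.10. It was −0.10 without control replicate 1 and −0.12 without STYK1 replicate 1, so those arrays carried most of it. The interval of −1.13 to 0.33 stands for 0.458 to 1.26 times the control level. It reached a 2-fold change, as the interval did for 4.42% of all probe sets, so the interval holds both a 2-fold lower level and no difference.

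The spread of HAMP was large for its brightness. Its replicate SD was 0.41, above that of 91.4% of the 1553 probe sets whose mean signal lay within 0.5 of its own, which had a median SD of 0.14. The other 8 iron genes had replicate SDs of 0.01 to 0.21, the largest being that of SLC11A2.

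**Figure D3:**
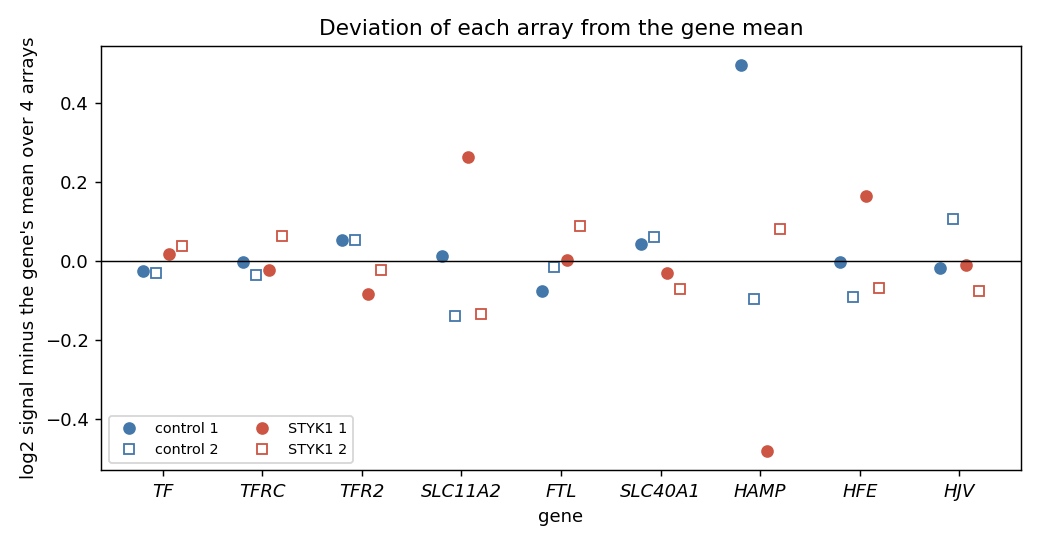
Deviation of each array from the gene's mean over the 4 arrays (vertical axis, log2 units) for the 9 iron genes, with blue points for controls, red points for STYK1 arrays, circles for replicate 1 and squares for replicate 2. HAMP stands out by control replicate 1, at 0.49, and STYK1 replicate 1, at −0.48, while its replicate 2 arrays lie close to 0.

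HFE was read just around the floor and HJV under it. HFE, a protein of the MHC class I type that binds both transferrin receptors, read 0.85 and 0.76 in the controls against 1.01 and 0.78 in the STYK1 arrays. It exceeded the floor in control replicate 1 and STYK1 replicate 1, and the groups overlapped. Its difference of 0.10 was −0.02 without STYK1 replicate 1. HJV, the BMP co-receptor, read 0.57 and 0.70 in the controls against 0.58 and 0.52 in the STYK1 arrays, under the floor on all 4. No fold is given for HJV, since both groups lay under the floor.

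The BMP and SMAD arm of hepcidin control differed at single genes, without passing the test. Of 17 measured genes of 18 listed, 9 were higher and 8 lower, with a median of 0.0004, and 0 passed at an adjusted p under 0.05. SMAD5, which carries the BMP signal to the nucleus, read 3.94 and 3.69 in the controls against 3.46 in both STYK1 arrays. Its difference of −0.36 had an unadjusted p of 0.0292 (limma, adjusted p = 0.979), where 1.91% of all probe sets were lower at that threshold. A second SMAD5 probe set, under the floor on all 4 arrays, differed by 0.21, and the mean of both differed by −0.07.

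NEO1, neogenin, which binds hemojuvelin, read 2.03 and 1.67 in the controls against 2.24 and 2.10 in the STYK1 arrays, a difference of 0.32 (limma, adjusted p = 0.979) that was 0.14 without control replicate 2 and 0.50 without control replicate 1. BMP2, a ligand of the pathway, differed by 0.18 with overlapping groups, and by −0.03 without control replicate 1. ID1, a direct target gene of BMP signalling like HAMP, was singled out after its values were seen: it read 7.37 and 7.39 in the controls against 7.36 and 7.41 in the STYK1 arrays. Its difference of 0.005 had an interval of −0.22 to 0.23 and was −0.03 after quantile normalization. Also outside the naming rule, ID3, SMAD6 and SMAD7 of the same list differed by −0.08, 0.02 and −0.11, with overlapping groups. The ligand BMP6 was under the floor on all 4 arrays.

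In the arm that runs from interleukin 6 to STAT3, the receptor subunits differed in opposite directions without passing. Of 7 measured genes, 4 were higher and 3 lower, with a median of 0.004, and 0 passed at an adjusted p under 0.05. IL6R, the subunit that binds the cytokine, read 3.48 and 3.04 in the controls against 2.57 and 2.70 in the STYK1 arrays. Both STYK1 arrays lay below both controls. Its difference of −0.63 had an interval of −1.07 to −0.18 and an unadjusted p of 0.016 (limma, adjusted p = 0.979), and it was −0.41 without control replicate 1.

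IL6ST, the signalling subunit gp130, read 6.55 and 6.72 in the controls against 6.86 and 6.95 in the STYK1 arrays, a difference of 0.27 with an interval of −0.007 to 0.54. The kinase TYK2 differed by −0.18, and by −0.11 without control replicate 1 or without STYK1 replicate 1. STAT3, the factor that carries the signal to HAMP, read 5.12 and 5.37 in the controls against 5.31 and 5.19 in the STYK1 arrays; it falls outside the naming rule and was picked after its values were seen. Its groups overlapped.

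**Figure D4:**
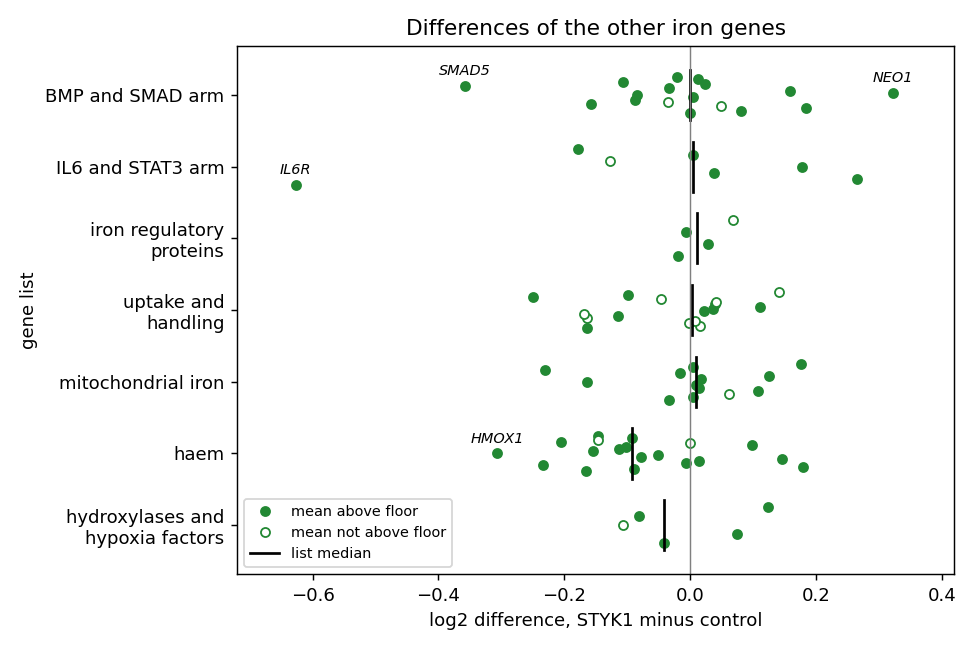
Log2 difference between STYK1 and control arrays (horizontal axis) for 81 measured genes in 7 lists around iron (rows); filled points have a mean signal above the floor, open points do not, and black lines are list medians. IL6R at −0.63 and SMAD5 at −0.36 lie farthest to the left, and the haem row has its median at −0.09.

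Around the members, 0 of 81 measured genes of the wider iron lists passed at an adjusted p under 0.05. At an unadjusted p under 0.05 there were 2, IL6R and SMAD5, both lower, or 2 of 81 beside the 4.64% of all probe sets. The count was 1 with an intensity trend, 1 among probe sets above the floor and 4 without control replicate 2. The groups did not overlap for 23 of the 81, 9 higher and 14 lower, beside the 32.8% of all probe sets.

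The measured genes of the iron regulatory proteins and their turnover were close between the groups. Of 5 listed genes 4 were measured, and IREB2, iron regulatory protein 2 itself, had no value. Among the 4, 2 were higher and 2 lower, and 0 passed. SKP1, counted as higher, was under the floor on all 4 arrays. ACO1, which becomes iron regulatory protein 1 when it loses its iron-sulphur cluster, read 5.26 and 5.14 in the controls against 5.16 and 5.20 in the STYK1 arrays. Its difference of −0.02 had an interval of −0.26 to 0.23. FBXL5, the iron-sensing subunit that marks iron regulatory protein 2 for degradation, differed by −0.007, and CUL1, the scaffold of that ligase, by 0.03.

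Of 16 genes of uptake, reduction and cytosolic handling 8 were higher and 8 lower, with 8 above the floor and 0 past the test. STEAP2, a metalloreductase, differed by −0.25, ceruloplasmin (CP), the ferroxidase that works with ferroportin, by −0.16, and MCOLN1, a channel that releases iron from lysosomes, by −0.11. Single arrays carried much of these values: STEAP2 differed by −0.10 without STYK1 replicate 2, CP by −0.05 without control replicate 2 and MCOLN1 by 0.02 without STYK1 replicate 1. The mitochondrial list had 9 of 13 higher and 4 lower, with a median of 0.009 and 0 past the test. NFS1, the desulfurase that supplies sulphur for clusters, differed by −0.23, ISCA1, a cluster assembly protein, by −0.16 and SLC25A37, mitoferrin 1, by 0.18. Without control replicate 1 the differences were −0.12 for NFS1 and −0.04 for ISCA1. Both SLC25A37 values in the STYK1 arrays, 1.51 and 1.57, lay above the 1.38 and 1.35 of the controls. Of 5 genes of oxygen sensing, which uses iron-dependent hydroxylases, 2 were higher and 3 lower and 0 passed. HIF1A differed by 0.12, EPAS1 by −0.08 and the hydroxylase EGLN1 by 0.07. For EPAS1 the value was −0.005 without control replicate 2 and −0.01 without STYK1 replicate 1.

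Haem genes leaned lower in the STYK1 arrays by count, and none passed. Of 19 measured genes of haem synthesis, transport and breakdown 15 had lower and 4 higher means, where 48.1% of all probe sets were lower. The median difference was −0.09. Among the 17 haem genes with a mean above the floor 13 were lower, where 46.1% of such probe sets were. Gene by gene, the groups did not overlap for 5 of 19, beside 32.8% of all probe sets, and 0 of 19 had an unadjusted p under 0.05 in limma. Averaged over the list, the controls deviated by 0.03 and 0.05 and the STYK1 arrays by −0.03 and −0.05. Leaving out 1 array gave 13 to 16 lower genes. These genes were read on the same 4 arrays and are not independent, so the count was not tested. The list was also looked at more closely than the other lists after its values were seen. HMOX1, haem oxygenase 1, which frees iron from haem, read 5.65 and 6.15 in the controls against 5.68 and 5.51 in the STYK1 arrays, a difference of −0.31 (limma, adjusted p = 0.979) that was −0.05 without control replicate 2. BLVRA, the reductase of the next step, differed by −0.23 and the haem and folate carrier SLC46A1 by −0.20. These were −0.11 for BLVRA without STYK1 replicate 1 and 0.02 for SLC46A1 without STYK1 replicate 2.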

How the data were processed

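The authors deposited 1 table of log2 signals, 1 column per array. Per the submitters' processing notes, the Transcriptome Analysis Console was used. Version, summarization, normalization and genome build were not given in the sources used. The log base was inferred: as natural logarithms even the lowest array maximum would stand for 82224, above the 65535 of a 16-bit scanner. Array medians lay between 0.615 and 0.629, and no further normalization was applied. The number of arrays limits the precision, with a median standard error of a difference of 0.11.

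Probe sets were named from the platform annotation, with 90 symbols updated by Entrez ID from RefSeq (GRCh38.p14), and the probe set with the highest mean stood for a gene. Promoter sequences are RefSeq's. Arrays were grouped by title. No label says whether replicates were separate cultures; p-values therefore reflect the spread of these samples alone, and that may be technical. Groups were compared with limma 3.58.1 in R 4.3.3 (lmFit, eBayes, two-sided, Benjamini-Hochberg over all 53617 probe sets, threshold 0.05), tested first on simulated data; intervals are its 95% intervals per gene, not adjusted for their number.

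Members and lists were chosen with earlier results of these data known. All members are named. From each wider list, genes passing the test or else up to 3 with the largest absolute difference and a mean above the floor are named. Alternatives tried were an intensity trend, robust variances, a replicate block, quantile normalization, equal array medians, a filter at the floor, other probe set rules and leaving out each array.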

Additional observations from a re-analysis of the deposited data

How the results depend on the processing

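For the 9 iron genes, quantile normalization and equal array medians changed no direction; the other alternatives that kept all 4 arrays cannot change a difference of these genes, which have 1 probe set each. No alternative gave an adjusted p below 0.956 for any of them. Leaving out 1 array turned the direction of 3: the differences ranged from −0.0037 to 0.0835 for TFRC, −0.0221 to 0.213 for HFE and −0.0719 to 0.326 for SLC11A2. The same ranges were −0.0832 to 0.0444 for ACO1, −0.029 to 0.397 for BMP2, −0.103 to 0.159 for CUL1, −0.126 to 0.112 for FBXL5, −0.0206 to 0.0311 for ID1, −0.246 to 0.0164 for MCOLN1 and −0.425 to 0.0151 for SLC46A1. Quantile normalization gave −0.0268 for ID1. The median over the iron genes ranged from −0.0719 to 0.0563 without 1 array. For STYK1 the difference was 6.96 to 7.42 without 1 array, with adjusted p-values of 0.347 to 0.724, and 0 probe sets (lowest 0, highest 0) passed; in these fits the spread of the lone array is taken from the other group.

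The labels do not say that equal replicate numbers mark a shared culture, and deviations of same-numbered arrays correlated at −0.044. A replicate block gave STYK1 a difference of 7.19 (adjusted p = 0.0637), 0 probe sets passed, and 0 of the 9 iron genes did; the cause was not tested. Counts at an unadjusted p under 0.05 were 958 probe sets above the floor and 1002 with 1 probe set per gene, against 2489, since fewer were tested. For the wider lists that count was 1 with an intensity trend, 1 above the floor and 1 with the mean of all probe sets of a gene, against 2, and 3 to 4 without 1 array. The alternatives for the haem genes were added after seeing the data. An intensity trend, robust variances and a replicate block cannot change their median, and the filter and other probe set rules left it at −0.09. It was −0.12 after quantile normalization, −0.10 with equal array medians, −0.08 without control replicate 1 and −0.07 without STYK1 replicate 1.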
